A study of Homo sapiens with 6 samples.

Results

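The genes described here are 10 that encode the nuclear lamins and the proteins that tie them to the nuclear membrane and to the cytoskeleton: LMNA, LMNB1, LMNB2, LBR, SUN1, SUN2, SYNE1, SYNE2, EMD and TMPO. They were chosen by name from the 58884 genes of the deposited table, each symbol had 1 row, and all 10 passed the low-count filter that left 16098 genes for testing. RNA of DBTRG, an established human glioblastoma cell line of wild-type genotype per the labels, was sequenced after 5 days in a soft gel (3D, 3 libraries) or on a rigid dish (2D, 3 libraries). The labels do not say whether the replicates were separate cultures, so p-values describe only how far these libraries spread, and that spread could be technical. Substrate stiffness and 3D geometry cannot be told apart in this design.

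The nuclear lamina is a meshwork of A-type lamins (lamin A and lamin C, both from LMNA) and B-type lamins (LMNB1, LMNB2) under the inner nuclear membrane. Membrane proteins such as the lamin B receptor, emerin and lamina-associated polypeptide 2 bind lamins and chromatin there. SUN proteins span the inner membrane and nesprins the outer one, and their pairing in the perinuclear space forms the LINC complex (linker of nucleoskeleton and cytoskeleton), through which force on the cytoskeleton reaches the nucleus. A-type lamin protein is known to be more abundant in stiff tissues than in soft ones, which is why these genes are often examined when cells are moved between substrates.

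Promoter windows of the 4 genes with the largest falls are shown first. They are RefSeq windows on GRCh38.p14, 250 bases before to 50 bases after the start nearest the 5′ end of the annotated gene (1 start per gene), and 9 of the 10 genes (all but SUN1) had an entry. Capitals mark matches, on either strand, to TTTGGCGC and TTTCCCGC (E2F sites), TTTGAA (the CHR element of cell cycle genes), CCAAT (bound by NF-Y), GGGCGG (the GC box bound by Sp1) and TGACTCA (an AP-1 site). The windows are chr1:156082323-156082622 (plus strand) for LMNA, chr5:126776373-126776672 (plus) for LMNB1, chr19:2456910-2457209 (minus) for LMNB2 and chr1:225428772-225429071 (minus) for LBR.
LMNA: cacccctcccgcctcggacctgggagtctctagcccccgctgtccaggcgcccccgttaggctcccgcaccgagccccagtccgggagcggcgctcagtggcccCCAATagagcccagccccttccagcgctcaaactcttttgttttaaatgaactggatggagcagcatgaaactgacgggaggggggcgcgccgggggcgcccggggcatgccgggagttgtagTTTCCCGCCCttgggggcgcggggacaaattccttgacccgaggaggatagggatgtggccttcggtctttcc
LMNB1: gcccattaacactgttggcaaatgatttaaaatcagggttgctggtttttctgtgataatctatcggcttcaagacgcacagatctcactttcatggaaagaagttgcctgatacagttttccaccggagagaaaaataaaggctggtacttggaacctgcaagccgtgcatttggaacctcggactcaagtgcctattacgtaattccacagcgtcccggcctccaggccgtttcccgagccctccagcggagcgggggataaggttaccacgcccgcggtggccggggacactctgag
LMNB2: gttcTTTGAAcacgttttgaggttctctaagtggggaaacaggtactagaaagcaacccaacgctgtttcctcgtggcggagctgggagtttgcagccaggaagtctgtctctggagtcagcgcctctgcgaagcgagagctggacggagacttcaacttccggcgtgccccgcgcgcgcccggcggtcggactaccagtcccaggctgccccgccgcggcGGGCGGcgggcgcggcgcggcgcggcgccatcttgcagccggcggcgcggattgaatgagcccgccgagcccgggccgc
LBR: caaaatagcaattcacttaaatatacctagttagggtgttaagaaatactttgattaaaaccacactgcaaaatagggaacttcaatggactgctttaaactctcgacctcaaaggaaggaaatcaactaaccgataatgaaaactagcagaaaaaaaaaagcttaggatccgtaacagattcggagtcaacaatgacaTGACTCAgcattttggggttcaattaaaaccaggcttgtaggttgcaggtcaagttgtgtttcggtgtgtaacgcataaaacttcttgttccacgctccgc
Which listed start of LMNA or LMNB1 is the main one in these cells was not tested. The LMNA window shown held 1 E2F match (TTTCCCGC) overlapped by 1 GC box, and 1 CCAAT. LMNB2 held 1 TTTGAA and 1 GC box, LBR held 1 AP-1 match, and LMNB1 held none of the 6 motifs in the window shown. Of all listed starts, 1 of the 2 LMNB1 windows held CCAAT and 1 held GGGCGG. All 3 LMNA windows held GGGCGG, but only the LMNA window shown held TTTCCCGC or CCAAT. Among 35116 promoter windows of this length, 0.652% held TTTGGCGC, 1.63% TTTCCCGC, 15.2% TTTGAA, 34.6% CCAAT, 45.0% GGGCGG and 4.95% TGACTCA. No motif was shared by all 4 windows. The base composition also differed, with 38.3% G and C in the LBR window and 67.7% in that of LMNB2.

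Libraries held 20911340 to 25901465 counts. Levels are given as CPM, counts scaled to the library size after TMM factors. On the second principal component rigid dish 1 (45.9) stood apart from rigid dish 2 (-4.50) and rigid dish 3 (-24.8), and on the first component soft gel 3 (-25.9) lay nearer to the rigid dish libraries than soft gel 1 (-46.2) or soft gel 2 (-54.0). Mitochondrially encoded genes took 7.94% to 9.47% of counts in soft gel and 4.55% to 5.10% on the rigid dish. Of 7 glioma or astroglial markers, 4 (CD44, VIM, NES and SOX2) were at 1 CPM or more in every library, while GFAP was at 0.453 to 1.58 CPM in soft gel and 0.314 to 0.948 CPM on the rigid dish, S100B was at 1.10 to 1.44 CPM in soft gel and 0.299 to 1.08 CPM on the rigid dish, and OLIG2 had 0 counts, which allows at most 0.116 to 0.143 CPM per library. Summed endothelial, epithelial and muscle markers stayed below 3 CPM in each list. The 5 neuronal markers summed to 98.7 to 119.6 CPM in soft gel and 119 to 131 CPM on the rigid dish, mostly TUBB3 and MAP2, of which TUBB3 was lower in soft gel (log2 fold change -0.60, edgeR adjusted p = 0.0136) and MAP2 higher (0.76, edgeR adjusted p = 0.0179), while RBFOX3 was at 0 to 0.235 CPM in soft gel and 0 to 0.299 CPM on the rigid dish. The 6 leukocyte markers had a summed level of 39.8 to 47.5 CPM (soft gel) and 10.2 to 15.2 CPM (rigid dish), nearly all of it CD68, a lysosomal glycoprotein (38.4 to 45.5 CPM in soft gel, 10.04 to 14.9 CPM on the rigid dish, log2 fold change 1.78, edgeR adjusted p = 0.000419), with ITGAM, an integrin of myeloid cells, at 0.891 to 1.26 CPM in soft gel and 0.0862 to 0.299 CPM on the rigid dish (log2 fold change 2.49, edgeR adjusted p = 0.00841), and PTPRC, the defining leukocyte marker, at 0.328 to 0.576 CPM in soft gel, 0.0431 to 0.486 on the rigid dish.

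All 3 lamins, all 3 inner membrane proteins and both SUN genes were lower in soft gel, whereas the nesprins SYNE1 and SYNE2 were higher on average without passing the test. A gene was called at an adjusted p below 0.05 (edgeR's quasi-likelihood test, Benjamini-Hochberg over all tested genes). By this rule 8 of the 10 fell and 0 rose, against 13.2% of all tested genes that fell, 15.4% that rose and 28.6% called in either direction. SYNE1 and SYNE2 had an unadjusted p below 0.05, and DESeq2 called 1 of them, SYNE2, higher. The same 8 genes were those whose library groups did not overlap in CPM, all lower. Of all tested genes, 21.1% lay apart and lower, 23.5% apart and higher and 44.6% apart in either direction. In TPM the TMPO groups overlapped, with 70.4 in soft gel 1 and 68.8 in rigid dish 3. In bulk RNA, fewer cells with a transcript and less of it per cell cannot be told apart. The median log2 fold change of the 10 genes was -0.64, and that of all tested genes was 0.05. Every one of the 8 falls kept its direction under 17 alternative settings, and those of LMNB1, LMNB2, LBR and SUN1 kept the call in each. Without rigid dish 1 all 8 were still called lower, at -1.02 (LMNB2) to -0.42 (SUN2), and without soft gel 3 at -1.27 (LMNB2) to -0.57 (SUN2). With 1 library left out the number of falls ran from 4 to 8. It was 4 without soft gel 2 (LMNB1, LMNB2, LBR and SUN1), and 5 without soft gel 1 or without rigid dish 2 (those 4 and TMPO).

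**Figure D1:**
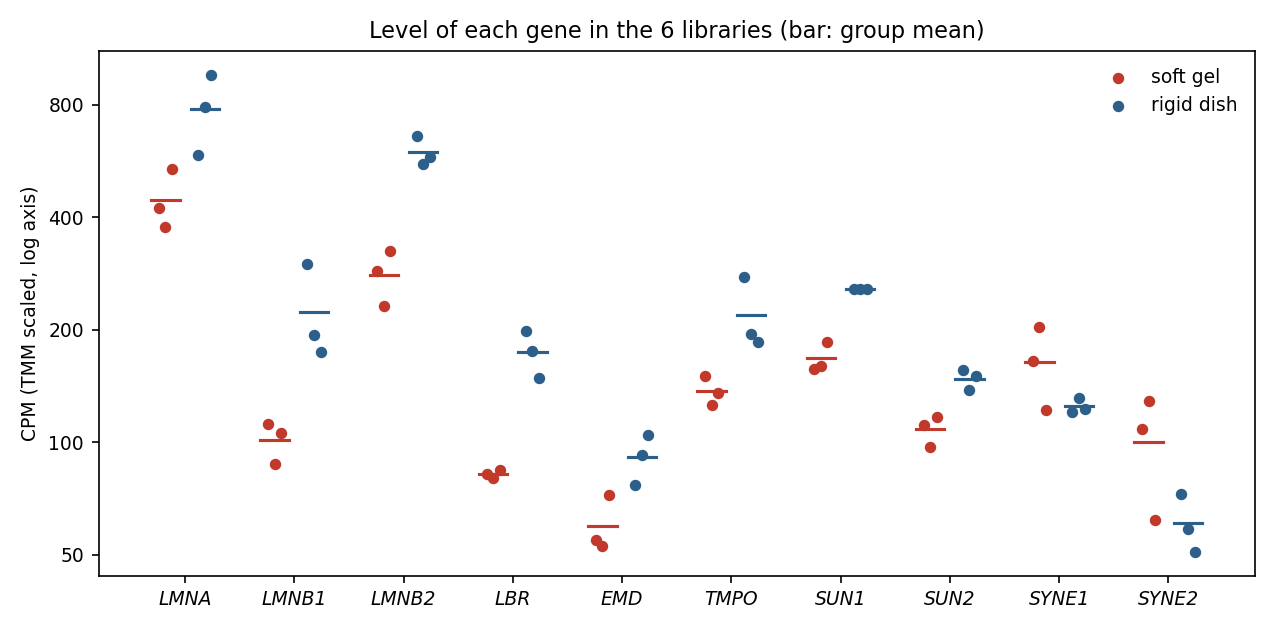
Level of each of the 10 genes in CPM (log axis) in the 3 soft gel libraries (red, left of each pair) and the 3 rigid dish libraries (blue), with bars at the group means. The groups are separate for the 8 genes from LMNA to SUN2 and overlap for SYNE1 and SYNE2, where soft gel 3 lies among or near the rigid dish libraries.

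LMNA (ENSG00000160789, hg38 chromosome 1, 156082573 to 156140089, plus strand), which encodes lamin A and lamin C, had 423, 376 and 539.5 CPM in soft gel 1 to 3, against 588, 790.4 and 964 CPM in rigid dish 1 to 3. Every soft gel library lay below every rigid dish library, and rigid dish 1 was the closest to the soft gel group. The log2 fold change of LMNA was -0.81 (SE 0.194, edgeR adjusted p = 0.0160), a level in soft gel 57.2% of that on the rigid dish. This call was lost without soft gel 1 (edgeR adjusted p = 0.0681), soft gel 2 (0.0767) or rigid dish 2 (0.0547). The table gives 1 value per gene, so lamin A and lamin C transcripts were not separated.

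LMNB1 (ENSG00000113368, chromosome 5, 126776623 to 126837020, plus strand), the gene of lamin B1, had 112, 87.3 and 106 CPM in soft gel and 300.1, 193 and 175 CPM on the rigid dish. Rigid dish 1 was far above the other rigid dish libraries, which is the reverse of its place for LMNA. The log2 fold change of LMNB1 was -1.13 (SE 0.201, edgeR adjusted p = 0.00493), and without rigid dish 1 it was -0.86 (edgeR adjusted p = 0.00131). LMNB2 (ENSG00000176619, chromosome 19, 2427638 to 2456996, minus strand), the gene of lamin B2, had 287, 231 and 325 CPM in soft gel against 662, 555 and 579 CPM on the rigid dish. Its groups were far apart, with the highest soft gel library well below the lowest rigid dish library. LMNB2 changed by -1.09 on the log2 scale (SE 0.143, edgeR adjusted p = 0.00149). TIMM13, a mitochondrial import gene, overlaps LMNB2 on the same strand and averaged 14.0% of its CPM.

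The authors' TPM, a relative abundance of transcripts per length, allow the lamins to be added and compared. The 3 lamins summed to 441, 362 and 483 TPM in soft gel and to 805, 723 and 749 TPM on the rigid dish. Mean lamin TPM in soft gel was 56.5% of that on the rigid dish (429 ± 61.7 against 759 ± 41.8 TPM, SD, n = 3 each, two-sided exact permutation p = 0.1, the lowest possible for groups of 3). LMNA was 65.9% ± 1.60 of lamin TPM in soft gel and 60.5% ± 9.08 on the rigid dish (SD, n = 3 each, exact permutation p = 0.5). The wide rigid dish spread came from rigid dish 1, where LMNA was 50.3%, against 63.5% in rigid dish 2 and 67.7% in rigid dish 3.

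The ratio of A-type to B-type lamin overlapped between the groups. LMNA was 4.65, 5.24 and 6.11 times LMNB1 in soft gel 1 to 3, and 2.40, 4.94 and 6.49 times LMNB1 in rigid dish 1 to 3. The soft gel values lay inside the range of the rigid dish values. The difference in the log2 ratio, soft gel minus rigid dish, was 0.32 (exact permutation p = 0.8, and 0.8 adjusted over the 4 ratios tested). Without rigid dish 1 it was -0.10, so its direction rested on that library. With both B-type lamins in the denominator the ratio was 1.94 ± 0.136 in soft gel and 1.61 ± 0.552 on the rigid dish (SD, n = 3 each), a log2 difference of 0.33 (exact permutation p = 0.5, adjusted 0.667) that was 0.02 without rigid dish 1. With 3 libraries a group this test cannot go below 0.1.

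**Figure D2:**
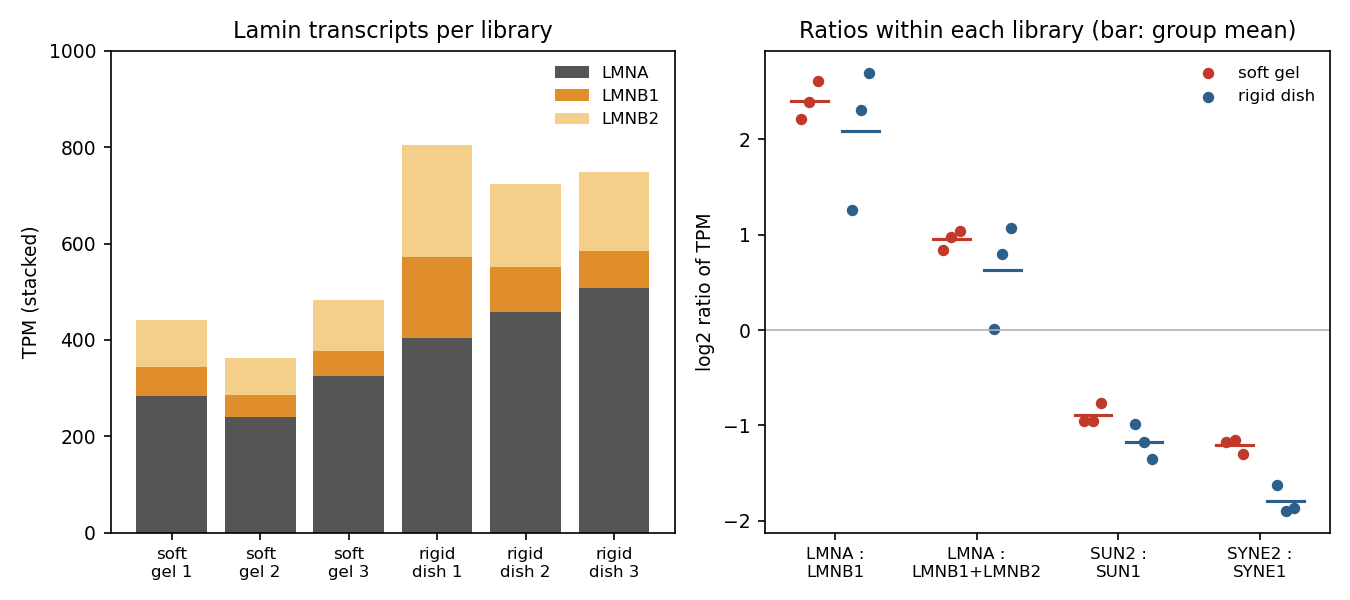
Left, TPM of LMNA, LMNB1 and LMNB2 stacked in each library. Right, log2 ratios of TPM within each library, soft gel red and rigid dish blue, with bars at the group means. The lamin sum is 362 to 483 TPM in soft gel and 723 to 805 TPM on the rigid dish. The LMNA to LMNB1 ratio overlaps between groups, with rigid dish 1 lowest, and the SUN2 to SUN1 and SYNE2 to SYNE1 ratios do not overlap.

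Among the inner membrane proteins, the lamin B receptor gene fell most. LBR (ENSG00000143815, chromosome 1, 225401502 to 225428925, minus strand), whose product binds B-type lamins and heterochromatin and is also a sterol reductase, had 82.1, 80.3 and 84.2 CPM in soft gel, against 199, 175 and 148 CPM on the rigid dish. The soft gel libraries were nearly equal, and all lay well below the rigid dish libraries. The log2 fold change of LBR was -1.08 (SE 0.126, edgeR adjusted p = 0.000991), and leaving out 1 library gave -1.25 to -0.98 (edgeR adjusted p = 0.000422 to 0.00941).

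EMD (ENSG00000102119, chromosome X, 154379197 to 154381523, plus strand) encodes emerin, a LEM-domain protein that binds lamins and the chromatin protein BAF. It had 54.6, 52.8 and 72.0 CPM in soft gel and 76.7, 92.7 and 105 CPM on the rigid dish. Soft gel 3 and rigid dish 1 came close to each other without crossing. On the log2 scale EMD changed by -0.61 (SE 0.161, edgeR adjusted p = 0.0223), and the call was lost without soft gel 1 (edgeR adjusted p = 0.0933), soft gel 2 (0.0973) or rigid dish 2 (0.0779).

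TMPO (ENSG00000120802, chromosome 12, 98515512 to 98550379, plus strand) encodes the isoforms of lamina-associated polypeptide 2, of which the alpha form binds A-type lamins in the nuclear interior. Its levels were 150.4, 126 and 135.5 CPM in soft gel, against 276, 195 and 185 CPM on the rigid dish, where rigid dish 1 was again the highest. The log2 change of TMPO was -0.67 (SE 0.162, edgeR adjusted p = 0.0160). It was -0.47 without rigid dish 1, still past the threshold. The call was lost without soft gel 2 (edgeR adjusted p = 0.0764) and with limma on log2(TPM + 1) (adjusted p = 0.157) or log2(TPM + 0.1) (0.154).

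Rigid dish 1 had the highest levels of LMNB1, LMNB2, LBR, TMPO, SUN2 and SYNE2 in its group, and the lowest of LMNA, EMD and SYNE1. It also had the highest summed CPM of 10 proliferation genes, 2570 CPM, against 1736 CPM in rigid dish 2 and 1594 in rigid dish 3, while soft gel 1 to 3 had 1466, 1197 and 1127 CPM. Of these 10 proliferation genes, 7 fell and 0 rose in soft gel, where 13.2% of all tested genes fell and 15.4% rose. Those not called were MKI67 (log2 fold change -0.68, edgeR adjusted p = 0.0858), TOP2A (-0.15, 0.735) and CDK1 (0.05, 0.915). The parts of proliferation, of the higher mitochondrial share of the soft gel libraries and of the leukocyte and neuronal marker differences in the lower lamin and inner membrane transcripts were not tested.

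Both SUN genes were lower in soft gel. SUN1 (ENSG00000164828, chromosome 7, 816615 to 896435, plus strand) had 157, 159.7 and 186 CPM in soft gel, against 256.8, 257.4 and 256.8 CPM on the rigid dish. The rigid dish libraries were almost the same, with a coefficient of variation of 0.132%, and every soft gel library lay below them. SUN1 changed by -0.62 on the log2 scale (SE 0.107, edgeR adjusted p = 0.00444). SUN2 (ENSG00000100242, chromosome 22, 38734725 to 38794143, minus strand) had 111, 97.0 and 117 CPM in soft gel and 156, 138 and 150.3 CPM on the rigid dish, again without overlap. Its log2 fold change was -0.45 (SE 0.114, edgeR adjusted p = 0.0196), the smallest of the 8 falls.

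The SUN2 call was lost without soft gel 1 (edgeR adjusted p = 0.0699), soft gel 2 (0.0867) or rigid dish 2 (0.0552), and with limma on log2(TPM + 1) (adjusted p = 0.162) or log2(TPM + 0.1) (0.162). GTPBP1, on the opposite strand, overlaps SUN2 and averaged 42.0% of its CPM, and DNAL4, on the same strand, overlaps SUN2 and averaged 10.6%. GET4, on the same strand, overlaps SUN1 and averaged 29.2% of its CPM. The levels of both SUN genes are therefore uncertain to the extent that the counting split shared reads. Per length, SUN2 was 0.516, 0.515 and 0.590 of SUN1 in soft gel, against 0.503, 0.443 and 0.392 on the rigid dish. The groups did not overlap, narrowly, since soft gel 1 and soft gel 2 lay just above rigid dish 1. The log2 ratio differed by 0.28 (exact permutation p = 0.1, the smallest possible, and 0.2 adjusted over the 4 ratios). From counts that are not divided by length it differed by 0.17, and the groups overlapped. There soft gel 2 (2388.5 SUN2 and 3935.2 SUN1 counts) had a ratio just below that of rigid dish 1 (4167.3 and 6861.8).

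Nesprins carry long spectrin-repeat rods that reach actin through N-terminal calponin homology domains, and many shorter isoforms lack parts of the rod. SYNE1 (ENSG00000131018, chromosome 6, 152121684 to 152637801, minus strand), the nesprin-1 gene, had 165, 204 and 122 CPM in soft gel, against 121, 131 and 123 CPM on the rigid dish. Soft gel 1 and soft gel 2 lay above every rigid dish library, and soft gel 3 lay among them. The log2 fold change of SYNE1 was 0.39 (SE 0.170, 95% interval 0.01 to 0.77, edgeR adjusted p = 0.111), which did not pass.

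SYNE2 (ENSG00000054654, chromosome 14, 63852983 to 64226433, plus strand), the nesprin-2 gene, had 109, 129 and 62.0 CPM in soft gel and 72.6, 58.5 and 50.9 CPM on the rigid dish. Soft gel 3 fell below rigid dish 1, and the other soft gel libraries were above the whole rigid dish group. The log2 fold change of SYNE2 was 0.72 (SE 0.246, 95% interval 0.17 to 1.27, edgeR adjusted p = 0.0546). Without soft gel 3, both SYNE1 (0.50, edgeR adjusted p = 0.0187) and SYNE2 (0.91, edgeR adjusted p = 0.00613) passed, and SYNE2 also passed without rigid dish 1 (0.86, adjusted p = 0.0266). Per length, SYNE2 had 18.8, 23.0 and 12.6 TPM in soft gel, against 11.4, 8.65 and 7.45 TPM on the rigid dish. On this scale soft gel 3 was again the lowest of its group, but the groups did not overlap. In the authors' deposited table SYNE2 had a log2 fold change of 0.61 with an adjusted p of 0.0161 and SYNE1 one of 0.31 with an adjusted p of 0.145. The authors' deposited table gave an adjusted p below 0.05 for 9 of the 10 genes.

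**Figure D3:**
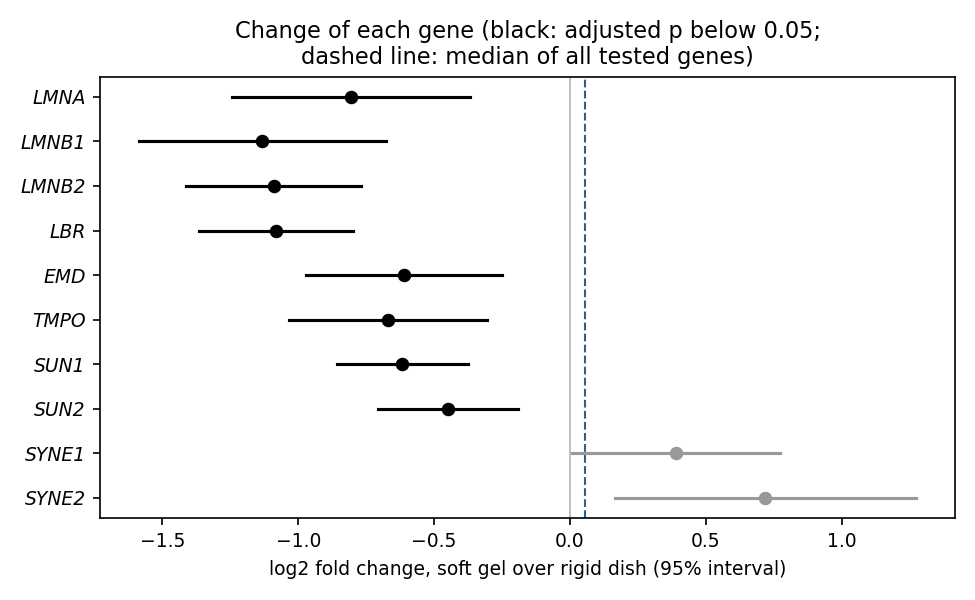
Log2 fold change of each gene, soft gel over rigid dish, with its unadjusted 95% interval from the edgeR fit, black where the adjusted p was below 0.05. The 8 black points lie between -1.13 (LMNB1) and -0.45 (SUN2), SYNE1 and SYNE2 lie at 0.39 and 0.72, and the dashed line at 0.05 is the median of all tested genes.

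Unlike the lamin ratio, the ratio between the nesprins did not overlap between groups in TPM, though it did from counts not divided by length. SYNE2 was 0.442, 0.449 and 0.407 of SYNE1 per length (TPM) in soft gel, against 0.325, 0.269 and 0.274 on the rigid dish. Soft gel 3, which lay among the rigid dish libraries in the CPM of either nesprin, was with the other soft gel libraries for this TPM ratio. The log2 ratio differed by 0.58 (exact permutation p = 0.1, the smallest possible, and 0.2 adjusted over the 4 ratios), and by 0.53 to 0.67 with 1 library left out. From counts that are not divided by length the difference was 0.31, and the groups overlapped. Soft gel 3 had 1321 SYNE2 to 2599 SYNE1 counts, a lower ratio than in rigid dish 1, with 1940 to 3227.

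The nesprin genes are among the longest in the table, at 27708 bases for SYNE1 and 21842 for SYNE2, and median fold changes were higher in longer classes across all tested genes. The median log2 fold change was -0.04 in 1548 genes shorter than 1000 bases, 0.12 in 3999 genes of 4000 to 8000 bases and 0.37 in the 114 genes of 15000 bases or more. In that longest class 28.1% of genes were called higher and 4.39% lower. SYNE1 (0.39) lay close to the median of its class. With a correction for length, added after seeing the data, SYNE1 was at -0.09 (edgeR adjusted p = 0.633) and SYNE2 at 0.30 (edgeR adjusted p = 0.160). The other 8 genes were 1379 to 4634 bases long, in classes with medians of -0.01 to 0.12, and all 8 were called lower with the length correction and with a correction for GC content. What underlies the trend with length was not tested.

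**Figure D4:**
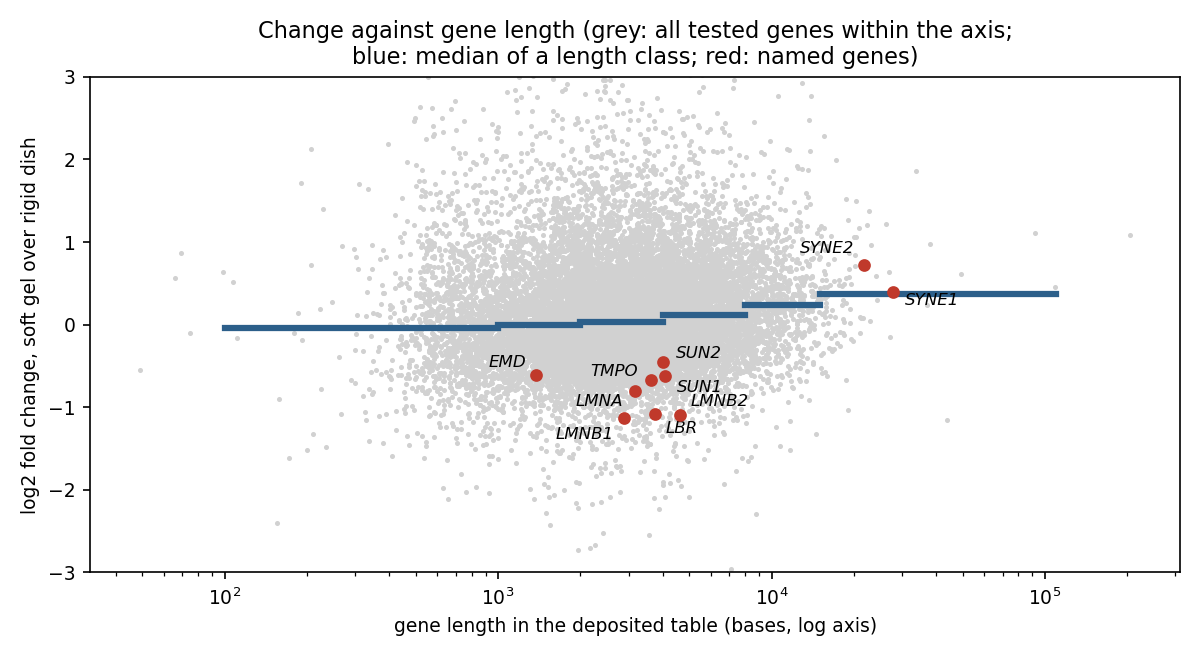
Log2 fold change (soft gel over rigid dish) against gene length in the deposited table (log axis) for all tested genes within the axis (grey), with the median of each length class (blue) and the 10 genes (red). The class medians run from -0.04 below 1000 bases to 0.37 at 15000 bases or more, where SYNE1 and SYNE2 lie, and the other 8 genes lie well below the median of their class.

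Counts divided by TPM are proportional to the transcript length that the authors' quantification used for a gene in that library. These implied lengths were scaled so that the median of 12850 genes matched the deposited gene length, and are approximate, since how the authors computed TPM is not stated. For SYNE1 the implied length was 7006 ± 180.5 bases in soft gel and 6677 ± 110.2 bases on the rigid dish (SD, n = 3 each), 24.5% to 25.7% of the deposited length in soft gel and 23.9% to 24.6% on the rigid dish. For SYNE2 it was 9701 ± 1090.2 bases in soft gel and 11163 ± 995 bases on the rigid dish, 38.9% to 48.6% of the deposited length in soft gel and 47.0% to 56.0% on the rigid dish. Both nesprins thus had implied lengths well below the deposited ones in both groups, and the groups overlapped for each nesprin (exact permutation p = 0.2 for each). The SYNE2 length was lowest in soft gel 3 (8499 bases) and highest in rigid dish 1 (12232 bases). The SYNE2 to SYNE1 ratio in TPM, unlike that from counts, depends on these lengths. For the other 8 genes the mean implied length in soft gel was 98.9% to 107% of that on the rigid dish. Single libraries varied more for SUN1, at 3033 to 3728 bases in soft gel and 2852 to 3338 bases on the rigid dish. The SUN2 to SUN1 ratio in TPM depends on these lengths too.

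Per length, LMNA was the highest of the 10 genes and SYNE2 the lowest in every library. LMNA averaged 283 ± 42.4 TPM in soft gel and 457 ± 51.2 TPM on the rigid dish, and SYNE2 averaged 18.1 ± 5.24 TPM in soft gel and 9.16 ± 2.02 TPM on the rigid dish (SD, n = 3 each). In soft gel, LMNA was followed by LMNB2 (92.7 TPM), EMD (88.6) and SUN1 (88.1), whose libraries overlapped, and then by TMPO (61.9), LMNB1 (53.3), SUN2 (47.6), SYNE1 (41.6) and LBR (36.4), where each neighbour overlapped the next. On the rigid dish, LMNB2 (189 TPM) came second, with every library above those of the next gene by mean, SUN1, though LMNB1 in rigid dish 1 (168.6 TPM) lay within the LMNB2 range. Then came SUN1 (136), EMD (126), LMNB1 (113), TMPO (94.0), LBR (76.1) and SUN2 (61.1), each overlapping the next, and SYNE1 (31.5) stood below these. SYNE1 was therefore above LBR on average in soft gel and below it on the rigid dish, where the ranges did not overlap.

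Other genes of the nuclear envelope were taken from 7 lists besides the proliferation genes. Counts for these lists are read against the 15.4% of all tested genes that rose and the 13.2% that fell, and 1 called gene in a list of 5 to 9 is near that background. Of 8 other inner nuclear membrane genes, 1 rose and 0 fell (median log2 fold change -0.16). That gene was TOR1AIP1, which encodes LAP1, a lamin-binding activator of torsin ATPases, at 37.8 ± 2.55 CPM in soft gel and 24.7 ± 4.11 CPM on the rigid dish (log2 fold change 0.62, edgeR adjusted p = 0.0154). Of 10 further LINC complex and torsin genes, 7 were tested, 0 rose and 1 fell (median -0.33). That gene was SYNE3, the nesprin-3 gene, whose product binds plectin, at 5.52 ± 1.49 CPM in soft gel and 9.10 ± 1.32 CPM on the rigid dish (log2 fold change -0.72, edgeR adjusted p = 0.0405).

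PLEC, the gene of plectin, a linker to intermediate filaments, also fell, to 1072 ± 114 CPM in soft gel against 1606 ± 363 CPM on the rigid dish (log2 fold change -0.58, edgeR adjusted p = 0.0320). Of the 8 cytoskeletal partners of nesprins, it was the 1 that fell. DST, the gene of dystonin, a large cytoskeletal linker, was the 1 that rose, with 920 and 1050.0 CPM in soft gel 1 and soft gel 2, 363 CPM in soft gel 3, and 419, 329 and 263 CPM on the rigid dish (log2 fold change 1.20, edgeR adjusted p = 0.0286). As for SYNE1 and SYNE2, the DST value of soft gel 3 lay within the rigid dish range. The median of the 8 partners was -0.12.

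Of 5 lamin processing enzymes, 1 rose and 0 fell (median 0.08). It was ZMPSTE24, the protease that cleaves prelamin A, at 75.7 ± 8.78 CPM in soft gel and 56.1 ± 3.93 CPM on the rigid dish (log2 fold change 0.43, edgeR adjusted p = 0.0303). With the GC correction the ZMPSTE24 value was 0.05 (edgeR adjusted p = 0.757), and the call was also lost with no low-count filter (edgeR adjusted p = 0.0715). Of 8 lamina-linked chromatin factors, 3 fell and 0 rose (median -0.33). HDAC3 was just past the threshold (log2 fold change -0.36, edgeR adjusted p = 0.0499). The number that fell was 2 with upper quartile factors, the 1 CPM filter or limma-voom, and 1 with limma on either TPM scale. BANF1, the gene of BAF, the emerin partner, was at 113 ± 13.4 CPM in soft gel and 167 ± 28.0 CPM on the rigid dish (log2 fold change -0.57, edgeR adjusted p = 0.0213). VRK1, a kinase that phosphorylates BAF, had a log2 fold change of -0.59 (edgeR adjusted p = 0.0301). Of 9 genes of nuclear envelope sealing by ESCRT proteins, 1 fell, the ATPase gene VPS4A (-0.48, edgeR adjusted p = 0.0415), and 0 rose (median -0.16).

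Of 30 nuclear pore genes, 12 fell and 0 rose (median -0.28), where 13.2% of all tested genes fell. NUP210, a membrane-spanning nucleoporin, was at 65.5 ± 7.09 CPM in soft gel and 145 ± 4.22 CPM on the rigid dish (log2 fold change -1.15, edgeR adjusted p = 0.000517). NUP88, a nucleoporin of the cytoplasmic side, was at 60.6 ± 2.43 CPM in soft gel and 103 ± 3.09 CPM on the rigid dish (log2 fold change -0.77, edgeR adjusted p = 0.00156). These NUP210 and NUP88 calls, and those of the proliferation genes MCM2 (log2 fold change -1.07) and MCM5 (-1.14), subunits of the replicative helicase, were kept in all 17 alternatives. The calls of TOR1AIP1, SYNE3, PLEC, DST, ZMPSTE24, BANF1, VRK1 and VPS4A were each lost without soft gel 1, without soft gel 2 and without rigid dish 2, and those of SYNE3, PLEC, DST, TOR1AIP1, VPS4A and ZMPSTE24 also without rigid dish 3. That of SYNE3 was lost without rigid dish 1 as well. With all libraries kept, limma on either TPM scale lost the calls of TOR1AIP1, SYNE3, DST, ZMPSTE24, VRK1 and VPS4A, upper quartile factors those of SYNE3 and VPS4A, and limma-voom that of DST. On log2(TPM + 1) SYNE3 stood at -0.34, and with the GC correction TOR1AIP1 stood at 0.37, still called.

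**Figure D5:**
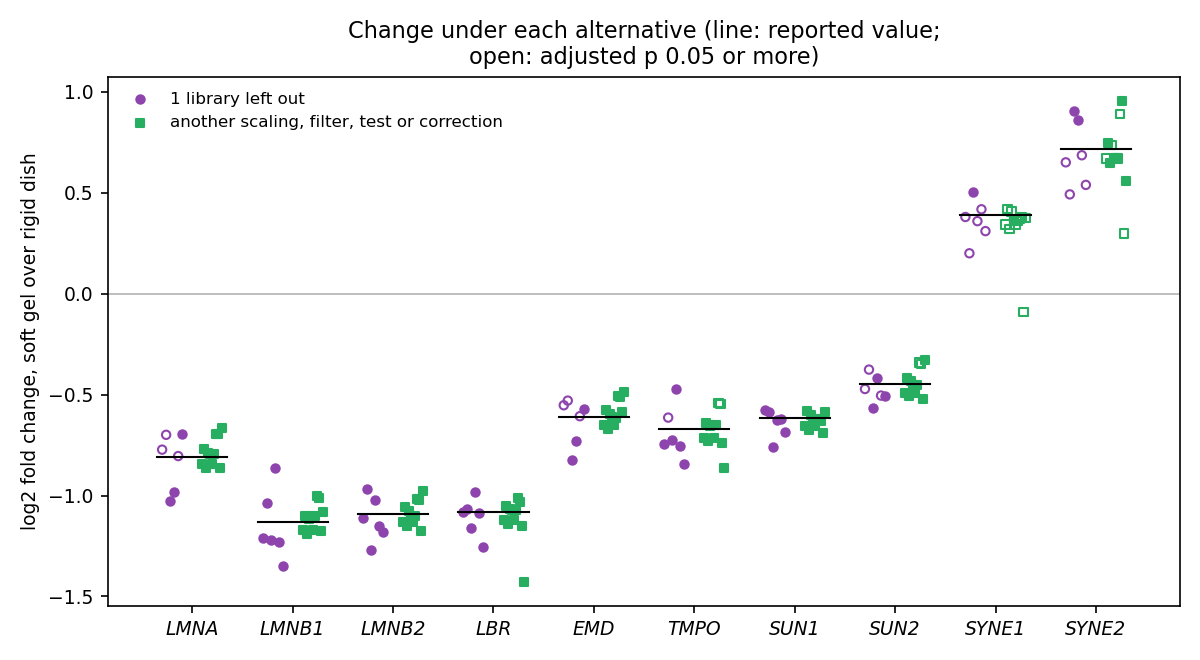
Log2 fold change of each gene (soft gel over rigid dish) with 1 library left out (circles) and under another scaling, filter, test or correction (squares), open where the adjusted p was 0.05 or more, with a line at the reported value. LMNB1, LMNB2, LBR and SUN1 have only filled symbols, and the 1 value on the other side of 0 is SYNE1 with the length correction, at -0.09.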

How the data were processed

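Read counts were from 6 RNA-seq libraries of DBTRG cells. Build hg38, HISAT2 and HTSeq are named, without versions, per the submitters' processing notes. Values deposited by the authors were estimated counts (11.3% to 13.0% of genes per library held decimals), TPM values per library, and mean TPM per group. The authors' deposited comparison, named for DESeq2, holds p-values, raw and adjusted, beside the fold as a ratio and on the log2 scale. The gene length is per the file headers.

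Counts were rounded, filtered with filterByExpr (minimum count 10), scaled by TMM and tested with edgeR 4.0.16 (limma 3.58.1, R 4.3.3) in 1 fit over all genes without covariates. Fold changes divide soft gel by rigid dish, and standard errors (SE) come from the test statistic. Ratios of TPM and implied lengths were compared with exact two-sided permutation tests (scipy 1.17.1). Positions are from GENCODE release 29 (hg38), and promoters from RefSeq (GRCh38.p14). The 10 genes, the lists and the motifs were chosen with earlier results of these data known. Named besides the 10 genes were up to 2 risen and 2 fallen genes per list, at a mean of 5 CPM or more. Cell type markers, overlapping genes, HDAC3 and the proliferation genes not called are named outside that rule. Limits for a count of 0 (3 counts) cover counting error only. On simulated data (15803 genes, 200 of them changed, 3 against 3 libraries), the test recovered 62.0% of 2-fold and 8.0% of 1.5-fold changes, with 7.89% of calls false. The reported fit called a larger share, 4603 of 16098 genes, so these rates need not hold for it.

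Alternatives were scaling by upper quartile or by DESeq2 size factors, no low-count filter or one at 1 CPM (3 libraries), the replicate number as a block, limma-voom, DESeq2 1.42.0, limma on TPM with pseudocounts of 1 and 0.1 (log2 scale), and leaving out each library. Length and GC corrections were chosen after seeing the data. No strand setting is given in the sources used here.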

Additional observations from a re-analysis of the deposited data

How the results depend on the processing

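The number of nuclear envelope genes called lower was 8 in each setting that kept all libraries, except 6 with limma on either TPM scale. The number called higher, 0 in the reported fit, was 1 with upper quartile factors, no low-count filter, DESeq2, limma on log2(TPM + 0.1) or the GC correction, and 2 with the replicate block. Limma on log2(TPM + 1) called 2313 genes of all (1345 higher, 968 lower) and on log2(TPM + 0.1) 2287 (1327 higher, 960 lower), against 4603 (2480 higher, 2123 lower) in the reported fit, and either scale called 8 of the 85 tested genes of the added lists, against 28. The median log2 fold change of all tested genes was 0.13 with log2(TPM + 0.1) and -0.006 to 0.10 in the other settings. Leaving out 1 library gave 4 to 10 nuclear envelope genes called (4 to 8 lower, 0 to 2 higher), 1803 to 6164 genes of all (1006 to 3239 higher, 797 to 2925 lower) and 9 to 38 list genes. SYNE1 reversed to -0.0916 with the length correction. The SYNE2 to SYNE1 difference of 0.58 was 0.31 from counts not divided by length, and 0.53 to 0.67 with 1 library left out. The other log2 ratio differences ran from -0.10 to 0.62 for LMNA to LMNB1, 0.02 to 0.55 for LMNA to both B-type lamins and 0.19 to 0.37 for SUN2 to SUN1 on leaving out 1 library. Same-numbered libraries deviated together with correlations of 0.22, 0.01 and 0.31, and differently numbered ones with -0.30 to 0.14. Rigid dish 2 correlated best with soft gel 3 (0.04). The labels do not say that the numbers pair libraries, so the reported fit used no block, and pairing remains possible. With the replicate block 6442 genes were called, and SYNE1 (0.36, edgeR adjusted p = 0.0389) and SYNE2 (0.67, edgeR adjusted p = 0.00392) passed the threshold. The causes of these changes were not tested. Each of the 10 genes had at least 1136 counts in every library, so the spread between libraries, not counting depth, limits these comparisons.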
